A study of Mus musculus with 24 samples.

Results

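Polyamine metabolism was followed through 9 genes in TM3 cells, a mouse Leydig cell line from the hormone-producing cells of the testis, of which 8 could be measured. The genes were Odc1, Srm, Sms, Sat1, Amd1, Azin1, Oaz1, Oaz2 and Smox, and a probe counted as one of theirs where its RefSeq transcript carried the gene's symbol. The 8 genes had 18 probes of 56605 on the array, all 18 were measured well enough to be tested, and 16 of them stood well above background on all 24 arrays. For Amd1, an S-adenosylmethionine decarboxylase, no transcript on the array carried the symbol, so its level is not given here.

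The arrays compared sham-treated TM3 cells (S) with TM3 cells exposed in suspension to nanosecond pulsed electric fields (nsPEF, E), at 0, 4 and 24 h. Exposure was 80 pulses of 60 ns at 14 kV/cm over 180 s, and the sham cells were prepared alongside without pulses. Each of the 6 groups (S0, E0, S4, E4, S24 and E24) held 4 samples that the study calls biological replicates. In the main fit, p-values rest on the spread between samples of the same group, pooled over the 6 groups and moderated over all tested probes. All 24 samples came from 1 established line, TM3, with no genetic change between groups. The 8 arrays of a time point shared 1 slide, with the sham arrays in its first row and the nsPEF arrays in its second, so time and slide, and treatment and place on the slide, cannot be told apart.

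Of 10 Leydig cell markers, 9 had a probe, and 4 of those (Star, Cyp17a1, Nr5a1 and Gata4) stood well above background on all 24 arrays. Cyp11a1, Hsd3b6, Hsd17b3 and Lhcgr did so on 0 arrays, so the first enzyme of steroid synthesis and the luteinizing hormone receptor were not measured above background. Among markers of other cells, 5 of 6 fibroblast and stromal genes, 3 of 6 immune genes, 2 of 6 Sertoli cell genes, 1 of 6 germ cell genes and 1 of 4 endothelial genes stood well above background on all arrays. The 75th percentile of the signal intensity ranged from 202 to 533 between arrays. The share of probes well above background was 57.5% to 62.1% on the sham arrays and 51.2% to 57.2% on the nsPEF arrays.

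Polyamines (putrescine, spermidine and spermine) are small positively charged molecules that bind RNA and DNA and are needed for growth and translation, and the testis is one of the tissues rich in them. Ornithine decarboxylase, the product of Odc1, makes putrescine, spermidine synthase (Srm) turns it into spermidine, and spermine synthase (Sms) turns spermidine into spermine, with S-adenosylmethionine decarboxylase supplying the propyl groups. Spermidine/spermine acetyltransferase (Sat1) and spermine oxidase (Smox) take the chain apart again. Antizymes (Oaz1, Oaz2) bind ornithine decarboxylase and send it to the proteasome, and the antizyme inhibitor (Azin1) binds antizymes and frees the enzyme, so the pathway is set largely by protein turnover and translation, which arrays do not read.

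The promoter sequences of the 3 genes that rose most from 0 h to 4 h by probe 1 are shown first, because these genes moved together over the time course. They were taken from RefSeq on the build GRCm38.p6, from 250 bases before to 50 bases after the transcription start, and 7 of the 9 genes matched the table used (not Srm and Azin1). Capitals mark GC boxes (GGGCGG or its complement CCGCCC) and, in Smox, also the core of an antioxidant response element (TGACNNNGC), found on either strand. The Smox promoter lay at chr2:131491612-131491911 on the + strand, the Sat1 promoter at chrX:155216400-155216699 on the - strand and the Odc1 promoter at chr12:17544623-17544922 on the + strand.
Smox: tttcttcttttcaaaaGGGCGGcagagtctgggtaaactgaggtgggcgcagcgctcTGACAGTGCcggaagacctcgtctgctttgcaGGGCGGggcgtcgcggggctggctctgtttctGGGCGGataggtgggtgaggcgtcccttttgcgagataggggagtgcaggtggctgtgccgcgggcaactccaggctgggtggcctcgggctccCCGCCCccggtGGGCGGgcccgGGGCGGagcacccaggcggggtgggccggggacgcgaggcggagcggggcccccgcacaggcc
Sat1: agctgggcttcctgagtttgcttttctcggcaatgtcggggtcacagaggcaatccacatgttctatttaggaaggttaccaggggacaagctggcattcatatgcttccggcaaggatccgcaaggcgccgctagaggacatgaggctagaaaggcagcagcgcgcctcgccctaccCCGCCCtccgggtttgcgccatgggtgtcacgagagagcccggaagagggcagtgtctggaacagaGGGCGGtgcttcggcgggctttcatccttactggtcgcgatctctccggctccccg
Odc1: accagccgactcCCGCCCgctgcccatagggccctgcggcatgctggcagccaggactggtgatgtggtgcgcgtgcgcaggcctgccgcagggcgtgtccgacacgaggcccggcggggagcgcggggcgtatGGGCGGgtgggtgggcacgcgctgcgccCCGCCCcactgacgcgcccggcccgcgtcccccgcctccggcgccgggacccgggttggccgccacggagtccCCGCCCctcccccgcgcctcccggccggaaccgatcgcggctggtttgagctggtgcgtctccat
The Smox window held 6 GC boxes, the Odc1 window 4 and the Sat1 window 2, against 35.7% of all 32851 promoters in the table with at least 1. Of the other genes, Oaz2, which was lower at 4 h, held 4. The 2 Sms windows held 0 and 4, Amd1 held 1 and Oaz1 held 0. The GC content was 71% for Smox, 60.3% for Sat1 and 78% for Odc1, with 61.7% for Oaz2, beside a median of 52.7% over all promoters. The E-box bound by MYC and MAX (CACGTG), which 7.15% of all promoters held, was not among the letters of these 3 windows, and neither were the cAMP response element (TGACGTCA, 1.79% of promoters), the AP-1 site (TGACTCA, 5.2%) or the TATA box (TATAAA, 13.6%). The antioxidant response element core stood in 12.4% of promoters, and among these genes in Smox and Oaz1. An E-box was found in 1 of the 2 Sms windows. GC boxes could overlap each other, a match is only a match of letters, and binding was not measured.

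Across the first 4 h in sham-treated cells, Odc1, Srm and Sms, which make polyamines, rose together with Smox and Sat1, which break them down. Of the 8 genes, 6 were higher and 1 was lower at 4 h than at 0 h (limma, adjusted p under 0.05), where 59.1% of all 37684 tested probes were called, 29.4% higher and 29.7% lower. The median difference of the 8 genes was 0.93 on the log2 scale, beside -0.0060 for all tested probes. All values are log2 of the processed signal minus the 75th percentile of the array, differences are on the same log2 scale, and a gene with several probes is represented by the one with the highest mean (probe 1), and levels of different genes cannot be set against each other. In such bulk samples, fewer cells of a kind and less RNA per cell cannot be told apart. Markers of other cells also moved from S0 to S4. Both tested Sertoli cell markers were lower (summed signal 30.4 to 37.1 at 0 h and 17.4 to 22.6 at 4 h, in units of the array's 75th percentile), as were 3 of 5 fibroblast and stromal markers, with 1 higher (324 to 356 and 245 to 273). Of 4 immune markers 1 was higher and 1 lower (4.74 to 5.32 and 6.30 to 7.37). Their part in the differences of the 8 genes was not tested.

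**Figure D1:**
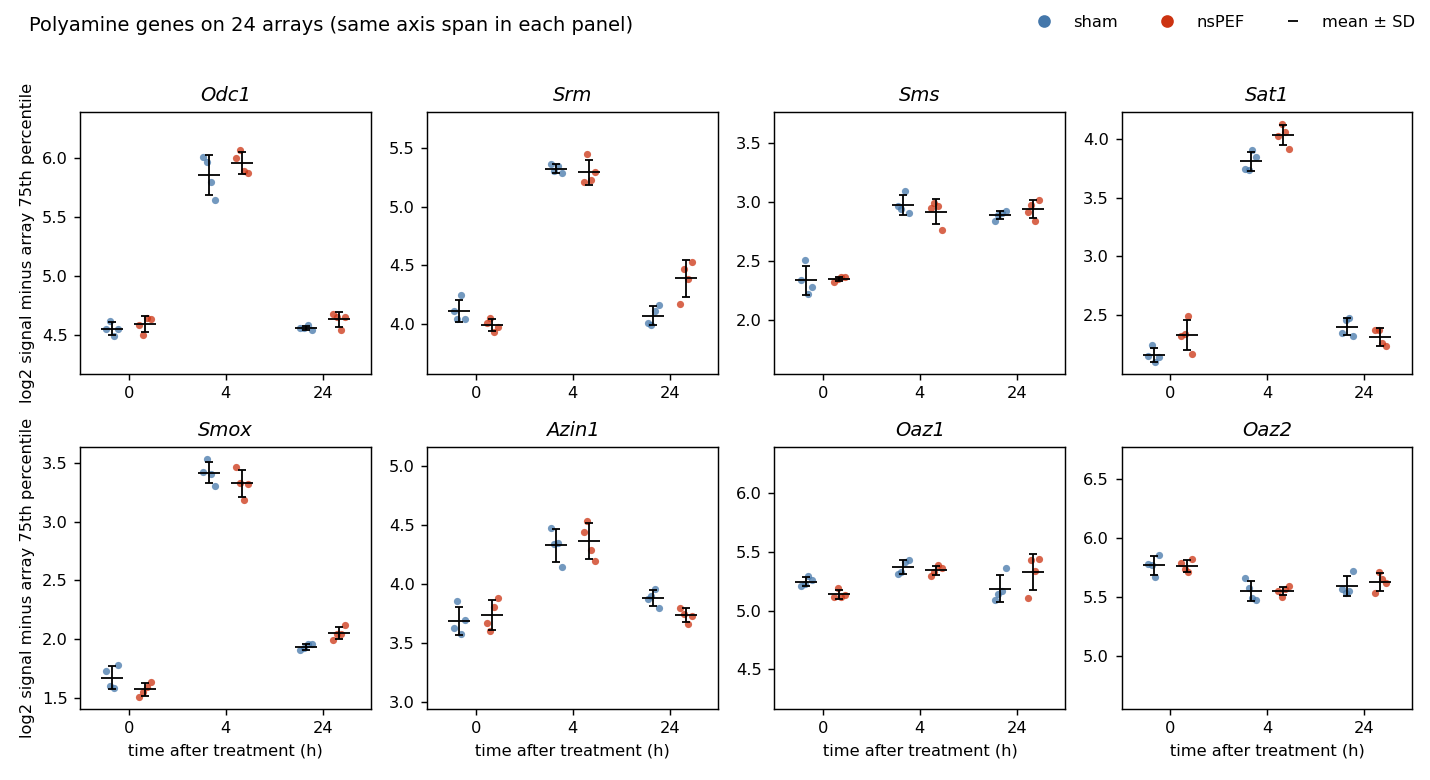
Level of each gene (log2 signal minus the array's 75th percentile) at 0, 4 and 24 h in sham (blue) and nsPEF-exposed cells (red), with 1 point per array and the mean ± SD of 4 arrays in black. Odc1, Srm, Sat1 and Smox stand apart from the other times at 4 h in both treatments, Sms stays up at 24 h, and Oaz1 and Oaz2 hardly move on the shared axis span.

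Odc1, which carries out the committed step to putrescine, read 4.55, 4.62, 4.49 and 4.55 in the 4 sham samples at 0 h and 6.01, 5.97, 5.80 and 5.64 at 4 h. The groups did not overlap, and every 4 h sample lay more than 1 log2 unit above every 0 h sample. The difference was 1.31 (SE 0.067, 2.47-fold, adjusted p = 9.14e-13), and its probe 2 moved by 1.42 (SE 0.13).

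Srm, for the step to spermidine, read 4.12, 4.04, 4.25 and 4.04 at 0 h and 5.37, 5.30, 5.35 and 5.28 at 4 h in sham. The 4 h samples were tightly grouped (5.32 ± 0.039, SD, n = 4) and all above those of 0 h. The rise was 1.21 (SE 0.071, 2.32-fold, adjusted p = 7.79e-12), and the other 2 Srm probes rose by 1.22 and 1.10.

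Sms, for the last step to spermine, moved less, from 2.33, 2.50, 2.22 and 2.28 at 0 h to 2.96, 2.94, 3.09 and 2.90 at 4 h in sham. Again no 4 h sample fell among those of 0 h. The difference was 0.64 (SE 0.062, 1.56-fold, adjusted p = 1.74e-08), and the remaining 3 Sms probes rose by 0.63 to 0.87.

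On the side of breakdown, Smox, which oxidizes spermine back to spermidine and releases hydrogen peroxide, read 1.73, 1.60, 1.58 and 1.79 at 0 h and 3.42, 3.53, 3.41 and 3.31 at 4 h in sham. This was the largest rise among the 8 genes by probe 1. The difference was 1.74 (SE 0.060, 3.35-fold, adjusted p = 2.26e-15), and probe 2 rose by 1.90 (SE 0.056, 3.72-fold).

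Sat1, which acetylates spermidine and spermine for export or oxidation, read 2.16, 2.25, 2.11 and 2.14 at 0 h and 3.75, 3.74, 3.90 and 3.84 at 4 h in sham with probe 1. The 4 h samples lay far above those of 0 h, with a difference of 1.64 (SE 0.065, 3.12-fold, adjusted p = 1.74e-14). Probe 2 of Sat1, for another transcript, rose by only 0.35 (SE 0.063, 1.27-fold, adjusted p = 7.41e-05).

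The regulators of ornithine decarboxylase moved less than the enzyme. Azin1, which protects the enzyme, read 3.63, 3.85, 3.58 and 3.70 at 0 h and 4.47, 4.34, 4.35 and 4.14 at 4 h in sham, and rose by 0.64 (SE 0.083, 1.56-fold, adjusted p = 1.14e-06). Oaz2, one of the antizymes, read 5.78, 5.77, 5.67 and 5.86 at 0 h and 5.66, 5.58, 5.49 and 5.47 at 4 h, just below the 0 h samples. Its difference was -0.22 (SE 0.055, adjusted p = 0.00194), its other 2 probes gave -0.21 and -0.32, and the call was lost with normexp background correction (-0.13, adjusted p = 0.0636) and with spike-in scaling (-0.17, adjusted p = 0.0635). Oaz1, the main antizyme, read 5.21 to 5.29 at 0 h and 5.31 to 5.43 at 4 h, and its difference of 0.12 (SE 0.065, adjusted p = 0.119) did not pass the test although the groups did not overlap (exact permutation p = 0.0286, two-sided, the smallest that 4 against 4 samples allow).

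In the nsPEF-exposed cells, 7 genes were higher and 1 was lower of 8 from 0 h to 4 h, where 61.3% of all probes were called, 33.5% higher and 27.8% lower. Smox rose by 1.75 (SE 0.060), from 1.51 to 1.64 at 0 h to 3.19 to 3.46 at 4 h. Sat1 rose by 1.70 (SE 0.065) with probe 1, from 2.17 to 2.49 at 0 h to 3.92 to 4.12 at 4 h. The mean of its probe 2 went only from 0.84 to 1.30. The enzymes of synthesis followed, with differences of 1.37 (SE 0.067) for Odc1, 1.30 (SE 0.071) for Srm and 0.57 (SE 0.062) for Sms. Azin1 rose by 0.63 (SE 0.083), and Oaz2 was lower by the difference of -0.22 (SE 0.055, adjusted p = 0.00207), a call lost with spike-in scaling (-0.13). Oaz1 was higher by 0.20 (SE 0.065, adjusted p = 0.0112), a call lost with quantile normalization (0.029), with the percentile taken over probes well above background on all arrays (0.11), after centring by array region (0.14) and without replicate 3 of every group (0.18). The tests of the interaction from 0 h to 4 h called 0 of the 8 genes (limma, unadjusted p under 0.05 for 0 genes), where 0.0345% of all probes were called.

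**Figure D2:**
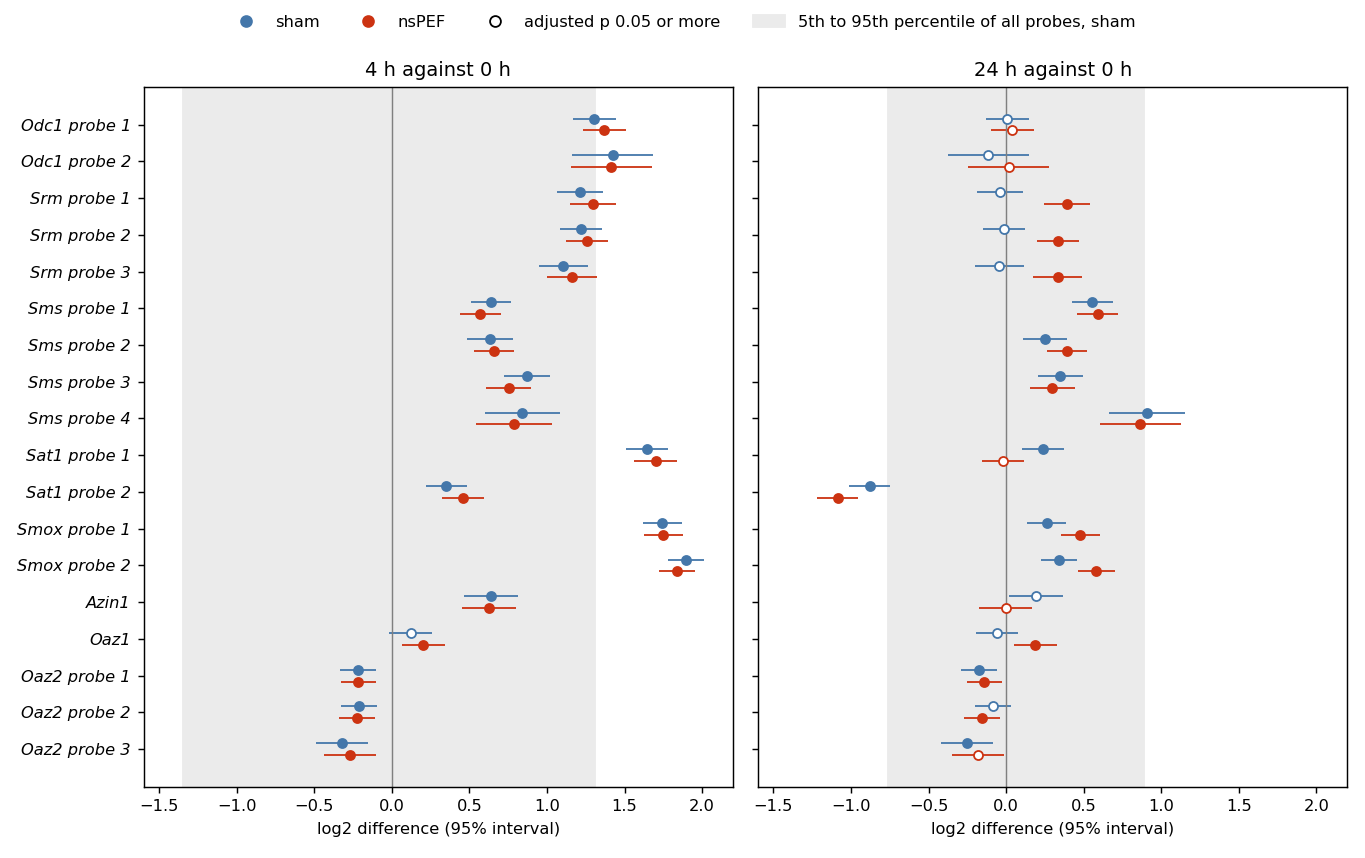
Log2 difference from 0 h with its 95% interval for all 18 probes at 4 h (left) and 24 h (right) in sham (blue) and nsPEF-exposed cells (red), with open points where the adjusted p was 0.05 or more and the 5th to 95th percentile of all tested probes in sham as a grey band. At 4 h in sham both Smox probes, probe 1 of Sat1 and probe 2 of Odc1 lie beyond the band's upper end of 1.31, and at 24 h the Odc1 probes are back near 0 while probe 2 of Sat1 lies at -0.88.

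From 4 h to 24 h Odc1, Srm, Sat1 and Smox came down again, while Sms by its probe 1 did not pass the test. In sham cells 6 of 8 genes were lower at 24 h than at 4 h and 0 were higher, where 57.7% of all probes were called, 27.8% higher and 29.9% lower. Odc1 fell by 1.30 (SE 0.067) to 4.56, 4.56, 4.58 and 4.54, within 0.0076 of its 0 h mean. Srm fell by 1.25 (SE 0.071) and ended -0.041 from its 0 h mean (adjusted p = 0.699). Smox fell by 1.48 (SE 0.060) and Sat1 by 1.40 (SE 0.065) with probe 1. The decrease of Azin1 by 0.45 (SE 0.083, adjusted p = 1.03e-04) and that of Oaz1 by 0.18 (SE 0.065, adjusted p = 0.0234) turned into differences of 0.20 and 0.47 with spike-in scaling, and that of Oaz1 also into 0.057 with quantile normalization. The Oaz1 call was also lost with the percentile over probes well above background on all arrays (-0.016), after centring by array region, without replicate 2 or 3 of every group, and without replicate 3 or 4 of S4 or replicate 1, 2 or 3 of S24. Sms, for spermine, read 2.84, 2.89, 2.91 and 2.92 at 24 h in sham, close to its 4 h samples, with a difference of -0.085 (95% interval -0.21 to 0.045, adjusted p = 0.260). Sms probes 2 and 3 were lower at 24 h than at 4 h, by differences of -0.38 and -0.52, and probe 4 was not (0.066, adjusted p = 0.666). With the mean of its probes Sms was called lower (-0.22, adjusted p = 0.00146), and with spike-in scaling it was called higher (0.57).

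In nsPEF-exposed cells 5 of 8 genes were lower at 24 h than at 4 h, where 56.6% of all probes were called, 27.5% higher and 29.0% lower. Sat1 fell by 1.72 (SE 0.065), Odc1 by 1.33 (SE 0.067), Smox by 1.27 (SE 0.060), Srm by 0.90 (SE 0.071) and Azin1 by 0.63 (SE 0.083). For Azin1 the call was lost with spike-in scaling (-0.23, adjusted p = 0.0729). Sms by its probe 1 gave a difference of 0.019 (95% interval -0.11 to 0.15), and it was called higher with quantile normalization (0.16, adjusted p = 0.0103), with the percentile over probes well above background on all arrays (0.14, adjusted p = 0.0292) and with spike-in scaling (0.41). From E4 to E24 the mean of Sms probe 2 went down from 1.90 to 1.63 and that of probe 3 from 1.49 to 1.03. The mean of probe 4 went up from 1.03 to 1.11.

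Between 0 h and 24 h, 4 of 8 genes differed in sham (3 higher, 1 lower), where 36.6% of all probes were called, 16.9% higher and 19.7% lower. In nsPEF-exposed cells 5 of 8 differed (4 higher, 1 lower), where 42.2% were called, 23.9% higher and 18.3% lower. Sms was higher in both, by 0.56 (SE 0.062, adjusted p = 7.27e-07) in sham and by 0.59 (SE 0.062, adjusted p = 2.92e-07) after nsPEF, and all 4 of its probes were called higher. Smox was also higher in both, by 0.26 (SE 0.060, adjusted p = 0.00196) in sham and 0.48 (SE 0.060, adjusted p = 3.09e-06) after nsPEF. Srm was called higher after nsPEF, by 0.39 (SE 0.071, adjusted p = 1.79e-04), and not in sham, but the interaction from 0 h to 24 h (0.44, SE 0.10) had an adjusted p of 0.0637, where that interaction called 0.353% of all probes. Odc1 gave differences of 0.0076 in sham (95% interval -0.13 to 0.15) and 0.040 after nsPEF (95% interval -0.10 to 0.18), and with spike-in scaling it was called higher in both (0.70 and 0.52). Oaz1 was higher by 0.19 after nsPEF (adjusted p = 0.0259), with overlapping groups, and lost the call with normexp background correction, after centring by array region, without any 1 of replicates 2, 3 and 4 of every group, and without replicate 1 or 3 of E0 or replicate 2 or 4 of E24, where its values were 0.15 to 0.18. Oaz2 was lower by differences of -0.17 in sham (adjusted p = 0.0177) and -0.14 after nsPEF (adjusted p = 0.0477), and both turned positive with spike-in scaling (0.52 and 0.34). Oaz2 was called under 31 of 40 alternatives in sham and 14 of 40 after nsPEF. Both counts include spike-in scaling, where the call was in the other direction. The call was lost in both with quantile normalization (-0.034 and -0.090), the percentile over probes well above background on all arrays (-0.13 and -0.11) and normexp background correction (-0.15 and -0.15). After nsPEF it was also lost without a filter (-0.14) and after centring by array region (-0.12). It was lost as well with left-out samples (-0.19 to -0.14 in sham and -0.18 to -0.10 after nsPEF). In sham those samples were replicate 1, 2 or 3 of every group, replicate 4 of S0 and replicates 2 and 3 of S24. After nsPEF they were any 1 replicate of every group, replicates 1 and 2 of S0, replicates 1, 2 and 4 of E0, replicates 2 and 3 of S4, each replicate of E4, replicates 1, 2 and 3 of S24 and replicates 1, 3 and 4 of E24.

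Spike-in scaling moved the median of all probes by 0.70 in sham and 0.54 after nsPEF from 0 h to 24 h, against 0.040 and 0.17 from 0 h to 4 h. Odc1, Srm, Sat1 and Smox stayed lower at 24 h than at 4 h under spike-in scaling in both treatments.

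The Sat1 probes parted company over the day. Probe 1 (NM_001291865) read 2.35, 2.46, 2.47 and 2.33 in sham at 24 h, slightly above 0 h, with a difference of 0.24 (SE 0.065, adjusted p = 0.00683) that was not called without replicate 3 of every group (0.20, adjusted p = 0.0651). Probe 2 (NM_009121) started at 0.72, 0.77, 0.73 and 0.81 in sham, reached 1.03, 0.98, 1.22 and 1.22 by 4 h, and ended on -0.08, -0.23, -0.05 and -0.12 after 24 h. So the 24 h samples of probe 2 lay below all those of 0 h, with a difference of -0.88 (SE 0.063, adjusted p = 1.75e-09), and after nsPEF it was -1.08 (SE 0.063, adjusted p = 6.73e-11). Probe 1 after nsPEF ended -0.018 from 0 h (adjusted p = 0.849). With the mean of both probes as the value of the gene, Sat1 was lower at 24 h than at 0 h in sham (-0.32, adjusted p = 2.38e-04), so the direction at 24 h depends on the probe, and which transcript each probe reads in these cells was not tested.

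**Figure D3:**
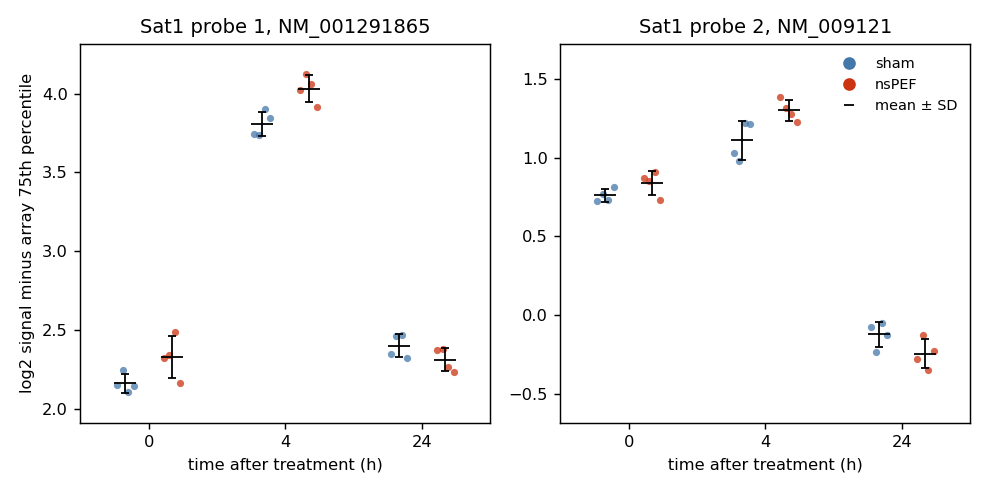
The 2 Sat1 probes at 0, 4 and 24 h in sham (blue) and nsPEF-exposed cells (red), as log2 signal minus the array's 75th percentile, with 1 point per array and the mean ± SD of 4 arrays. Probe 1 rises by 1.64 in sham at 4 h and returns close to its start, while probe 2 rises by 0.35 and then drops below its start at 24 h.

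The comparison that the study was built for, nsPEF against sham at the same time,, called 1 of the 8 genes at 1 of the 3 times. At 0 h it called 0 of 8 genes (limma; 1 gene, Sat1, at an unadjusted p under 0.05; 0 genes by the plain two-way linear model), where 0.127% of all probes were called. At 4 h it called 0 of 8 (1 gene, again Sat1, at an unadjusted p under 0.05; 1 gene by the plain model), where 3.31% of all probes were called. At 24 h it called 1 of 8, Srm, where 4.82% were called, 2.64% higher and 2.18% lower. Averaged over the 3 time points it called 0 of 8 (1 gene, Sat1, at an unadjusted p under 0.05; 0 by the plain model), where 8.84% were called, and the test of the interaction of treatment and time called 0 of 8 (4 genes, Srm, Sat1, Oaz1 and Smox, at an unadjusted p under 0.05; 0 by the plain model), where 0.377% were called.

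**Figure D4:**
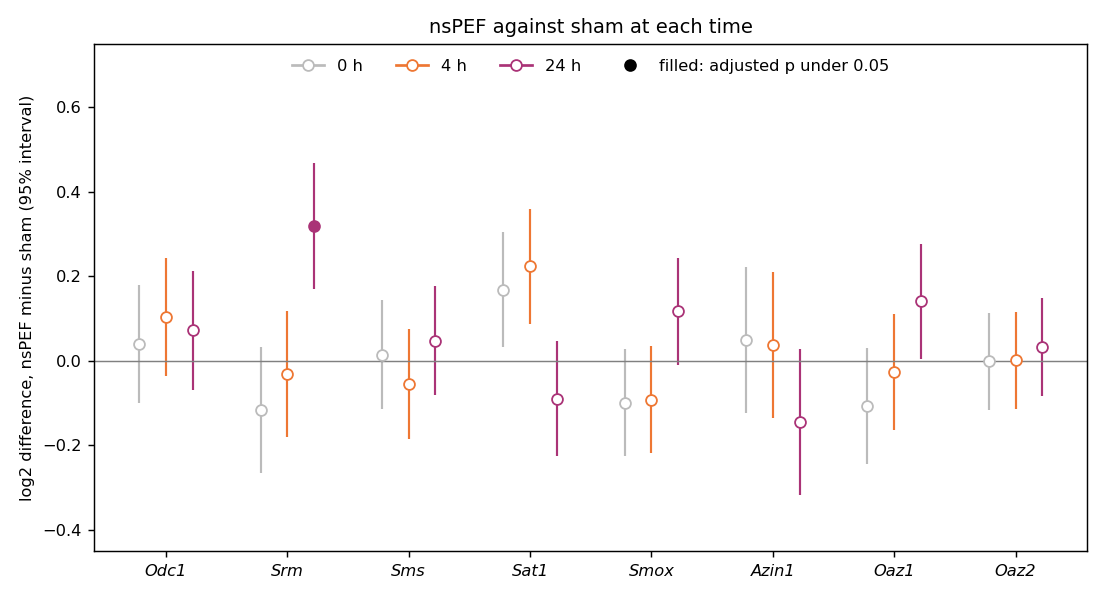
Log2 difference of nsPEF minus sham with its 95% interval for each gene at 0 h (grey), 4 h (orange) and 24 h (purple), filled where the adjusted p was under 0.05. Srm at 24 h (0.32) is the only filled point, and the next highest, Sat1 at 4 h (0.22), is open.

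Srm at 24 h read 4.01, 3.99, 4.11 and 4.16 in sham and 4.17, 4.47, 4.38 and 4.53 after nsPEF. The groups did not overlap, but the lowest nsPEF sample lay only just above the highest sham sample. The difference was 0.32 (SE 0.071, 95% interval 0.17 to 0.47, 1.25-fold, adjusted p = 0.0164, exact permutation p = 0.0286). Probe 2 of Srm differed by 0.28 (SE 0.065, adjusted p = 0.0201) and probe 3 by 0.22 (SE 0.076, adjusted p = 0.0976). The adjusted p lay above 0.05 without replicate 2 (0.27), 3 (0.33) or 4 (0.30) of every group, without replicate 1 (0.30) or 2 (0.29) of S24 or replicate 2 (0.29) or 4 (0.27) of E24, with spike-in scaling (0.25, adjusted p = 0.0819) and with only the 8 arrays of that slide (0.32, adjusted p = 0.136). Over all 41 alternatives the value ranged from 0.25 to 0.39, and 32 kept the call. At 0 h and 4 h Srm differed by -0.12 (adjusted p = 0.641) and -0.031 (adjusted p = 0.838).

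At 24 h 2 of 5 tested fibroblast and stromal markers were lower after nsPEF, Pdgfra by the difference of -0.24 and Pdgfrb by -0.33, and the summed signal of the 5 ranged from 258 to 268 in S24 and from 226 to 254 in E24 in units of the array's 75th percentile. Of the same list, Thy1 stood well above background on 0 arrays. Of 5 tested germ cell markers 1 was called, Ddx4, lower by the difference of -0.71, while the median of the 5 was 0.57, with sums of 0.319 to 0.357 in S24 and 0.338 to 0.694 in E24. Their part in the Srm difference was not tested. The shares of probes well above background were 59.0% to 61.0% in S24 and 52.4% to 57.2% in E24, and with the percentile taken over probes well above background on all arrays the Srm difference was 0.33 (adjusted p = 0.0134).

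Sat1 at 4 h read 3.75, 3.74, 3.90 and 3.84 in sham and 4.03, 4.12, 4.06 and 3.92 after nsPEF. Every nsPEF sample lay above every sham sample. The difference was 0.22 (SE 0.065, 95% interval 0.088 to 0.36, 1.17-fold) with an adjusted p of 0.0617 and an exact permutation p of 0.0286, and probe 2 gave 0.19 (SE 0.063, adjusted p = 0.0970), with groups that did not overlap either. The call was made under 8 of 41 alternatives, among them the replicate block (0.22, adjusted p = 0.0478), quantile normalization (0.24, adjusted p = 0.0274), spike-in scaling (0.41) and leaving out replicate 3 or 4 of E0. At 0 h the Sat1 difference was already 0.17 (SE 0.065, adjusted p = 0.350), called with spike-in scaling (0.32, adjusted p = 0.0444), and at 24 h it was -0.090 (SE 0.065, adjusted p = 0.430). At 4 h the share of probes well above background was 57.7% to 62.1% in sham and 51.2% to 56.0% after nsPEF, and of 5 tested germ cell markers 1 was called, Dmrtb1, higher by 1.35, while the median of the 5 was -0.15 (summed signal 0.378 to 0.531 in S4 and 0.448 to 0.642 in E4). Their part in the Sat1 values was not tested.

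The other genes were not called between treatments. Odc1 differed by 0.040 at 0 h (95% interval -0.10 to 0.18), 0.10 at 4 h (-0.037 to 0.24) and 0.072 at 24 h (-0.068 to 0.21), and with spike-in scaling it was called higher at 4 h (0.29, adjusted p = 0.0460). Under that scaling the median difference of all probes at 4 h was 0.19. Across the 3 times in order, Sms gave 0.015, -0.055 and 0.048, and Oaz2 gave -0.0016, 0.00077 and 0.033. Smox differed by -0.099 and -0.092 at 0 h and 4 h and by 0.12 (SE 0.060, adjusted p = 0.263) at 24 h, where its nsPEF samples (2.00 to 2.13) lay above its sham samples (1.91 to 1.96). Oaz1 differed by 0.14 at 24 h (adjusted p = 0.215) with overlapping samples, and it was called without replicate 1 of E24 (0.21, adjusted p = 0.0209). Azin1 differed by -0.14 at 24 h (SE 0.083, adjusted p = 0.315).

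Over the 24 arrays, the levels of Odc1, Srm, Sat1, Smox and Azin1 followed each other, with Pearson correlations of 0.87 to 0.98 in the 10 pairs. These correlations describe arrays that share slides and time points. Sms followed them less closely (0.54 for Odc1 to 0.68 for Smox), Oaz1 went with the 5 loosely (0.37 for Azin1 to 0.69 for Srm), and Oaz2 ran opposite to them (-0.57 for Odc1 to -0.67 for Smox) and to Sms (-0.78). Among 17905 probes of other genes, the probes most like Odc1 were those of Errfi1 (r = 0.997), Mat2a (0.996) and Rras2 (0.996). For Sat1 they included Reps1 (0.993) and Fosl2 (0.991), and for Smox they were Jmjd6, Urb1 and Plin2 (0.995 to 0.996). Mat2a makes S-adenosylmethionine, from which the propyl groups of spermidine and spermine are taken.

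The rest of the pathway was read from 6 lists of genes, whose counts at 4 h stand against 29.4% of all probes called higher and 29.7% called lower in sham. Of 10 genes of the methionine cycle and the salvage of the sulfur residue left by spermidine and spermine synthesis, 4 were higher and 5 were lower at 4 h than at 0 h in sham. Mat2a rose by 1.69 (SE 0.068, adjusted p = 2.17e-14) and Mtrr, which reactivates methionine synthase, by 1.11 (SE 0.067). Enoph1, of the salvage route, rose by 0.86 (SE 0.070), whereas Mat2b, the regulatory subunit of methionine adenosyltransferase, was lower by the difference of -0.64 (SE 0.075). The median of the 10 was -0.11.

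Of 9 genes listed around ornithine and arginine, which include the regulator Azin2, 6 could be tested, and 2 were higher and 4 lower at 4 h in sham. Slc25a15, the carrier of ornithine across the mitochondrial membrane, rose by 2.00 (SE 0.14), and Slc7a1, which brings arginine and ornithine into the cell, rose by 1.31 (SE 0.083). Azin2, a second antizyme inhibitor, was lower by the difference of -2.04 (SE 0.11) and Agmat, for agmatinase, by -0.75 (SE 0.15). Arg1, Arg2 and Otc stood well above background on 0 arrays. In nsPEF-exposed cells the list gave the same counts, with 1.96 for Slc25a15 and -2.25 for Azin2.

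Of the other polyamine enzymes, Paox, which oxidizes acetylated polyamines, was lower at 4 h by the difference of -0.94 (SE 0.063) and Sat2, related to Sat1, by -1.15 (SE 0.072) in sham. Amd2, a close relative of Amd1, rose by 0.92 (SE 0.097, adjusted p = 6.65e-08) in sham and 0.93 (SE 0.097) after nsPEF. Amd2 read 4.73, 4.89, 4.61 and 4.79 at 0 h and 5.83, 5.75, 5.73 and 5.38 at 4 h in sham, and how far its probes also read transcripts of Amd1 was not tested. With 1 higher and 2 lower of 3 tested genes, this list had a median of -0.94.

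Of 4 genes of the hypusine pathway, which uses spermidine to modify the translation factor eIF5A, 3 rose at 4 h in sham. Eif5a2 rose by 0.70 (SE 0.13), Dohh by 0.65 (SE 0.071) and Dhps by 0.44 (SE 0.051), and Eif5a gave -0.25 (adjusted p = 0.158). The same 3 were lower at 24 h than at 4 h in sham, by differences of -0.60, -0.58 and -0.56.

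Polyamine transporters split, with 3 of 6 higher and 3 lower at 4 h in sham. Atp13a3, a polyamine pump, rose by 0.90 (SE 0.076), and Slc12a8 was lower by the difference of -1.52 (SE 0.14) and Atp13a2, the lysosomal polyamine exporter, by -0.65 (SE 0.069). Slc22a3 gave 0.83 (SE 0.30, adjusted p = 0.0233) but stood well above background on 11 arrays only, turned to -0.14 with normexp background correction and lost its call without replicate 1, 2 or 3 of every group (0.57 to 0.86), replicate 2 of S0 (0.66) or replicate 2 or 3 of S4 (0.74 for both).

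Of 7 transcription factors of the MYC network and NRF2, 4 were higher and 3 lower at 4 h in sham. Max, the partner of MYC, rose by 1.29 (SE 0.063) and Myc by 0.96 (SE 0.059). Mxd1 and Mnt, which take MAX to repress the same sites, were lower by differences of -1.21 (SE 0.16) and -1.11 (SE 0.057). The medians were 0.41 for this list, -0.20 for the transporters, 0.55 for the hypusine pathway and -0.59 for ornithine and arginine, beside -0.0060 for all tested probes. After nsPEF 2 transporters were higher and 3 lower and 4 methionine genes were higher and 6 lower, and the other lists gave the counts of sham.

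**Figure D5:**
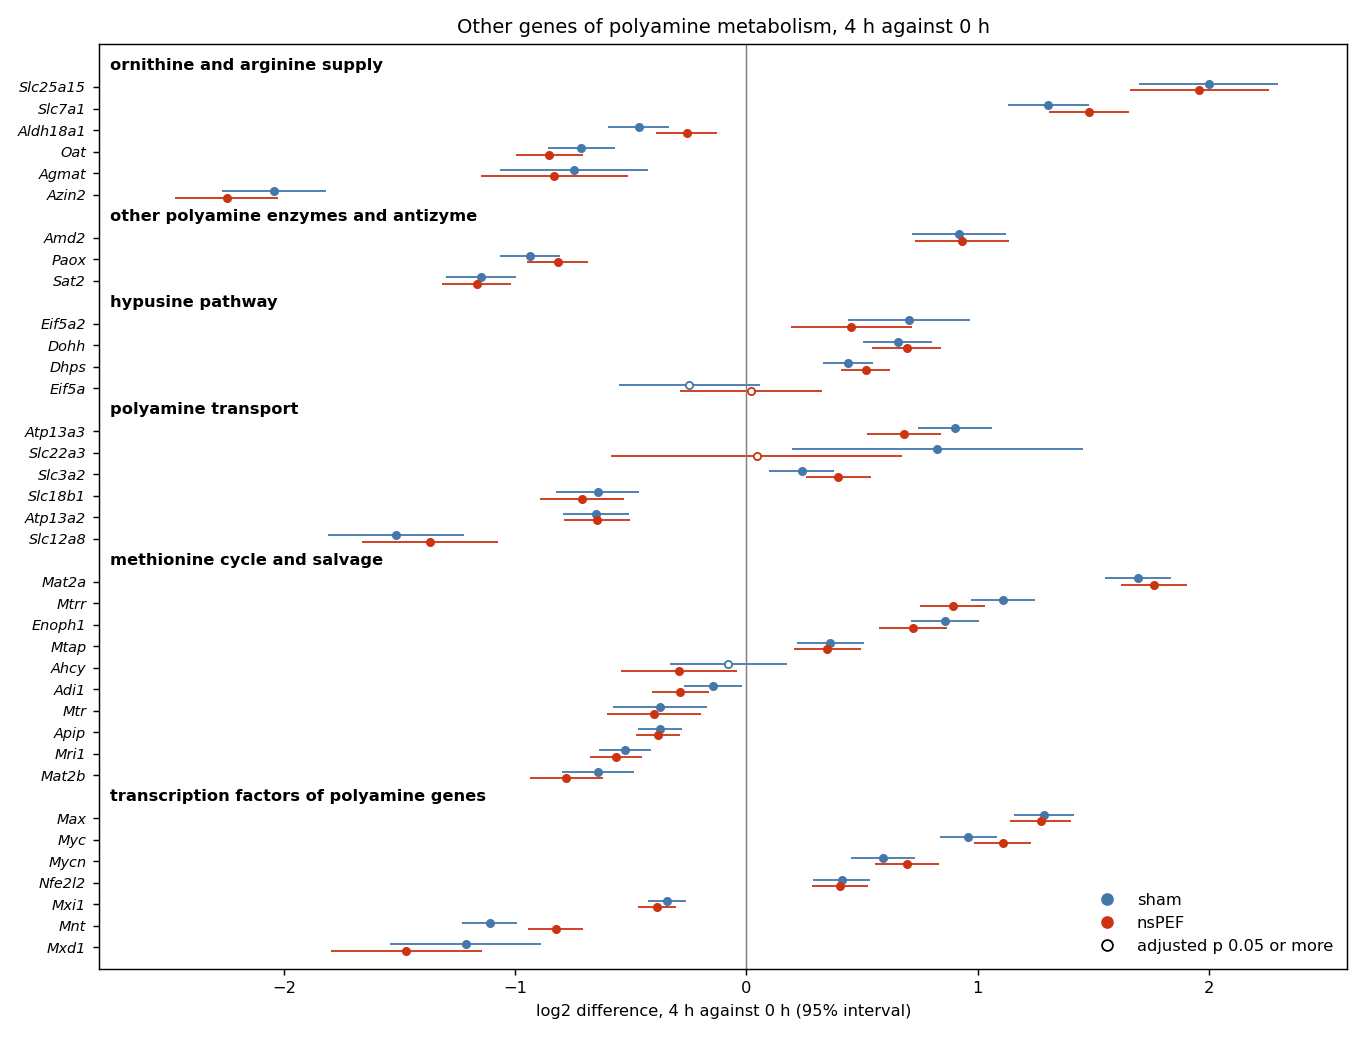
Log2 difference from 0 h to 4 h with its 95% interval for the tested genes of 6 lists around polyamine metabolism, in sham (blue) and nsPEF-exposed cells (red), with open points where the adjusted p was 0.05 or more. Within most lists genes lie on both sides of 0, from Slc25a15 at 2.00 to Azin2 at -2.04 in sham.

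Between nsPEF and sham, the 36 tested genes of the 6 lists gave 1 call at 4 h and 1 at 24 h, where 3.31% and 4.82% of all probes were called. Counts this small cannot be told apart from those shares. Over the 3 time points Azin2 (-0.27), Paox (-0.15) and Mxi1 (-0.11), a MAX-binding repressor, were called lower (adjusted p = 0.0135, 0.0179 and 0.0102), where 8.84% of all probes were called. These calls were not followed under the alternatives, and the Azin2 value is that of its probe 1 alone. Myc was higher after nsPEF at 4 h by 0.27 (SE 0.059, adjusted p = 0.0174), a call lost without replicate 1 of S4 (0.25), without replicate 3 of E4 (0.24), without replicate 1 (0.24), 2 (0.29) or 3 (0.25) of every group, with the mean of its probes (0.23) and with only the arrays of that slide (adjusted p = 0.119). Azin2 was lower at 24 h by the difference of -0.40 (SE 0.11, adjusted p = 0.0405), which turned to 0.015 with the mean of its 2 probes and was lost with normexp background correction (-0.19), with spike-in scaling (-0.46), with only the arrays of that slide (adjusted p = 0.110), and without replicate 1, 2, 3 or 4 of every group (-0.46 to -0.32), replicate 1, 2 or 3 of S24 or replicate 2, 3 or 4 of E24 (-0.43 to -0.32).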

How the data were processed

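RNA of 24 samples was labelled with Cy3 and hybridized by the authors to mouse Agilent arrays read in 1 colour. The deposited scanner text (Feature Extraction 12.0, per the file headers) gives each spot a processed signal intensity in arbitrary units, background-subtracted and detrended, not scaled between arrays. The deposited series matrix holds log2 values that the authors shifted to the 75th percentile and centred on the median of each probe, used here as an alternative.

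Of 62976 spots, 3671 controls were left out and spots of a probe were averaged without those the software marked as outliers, which gave 56605 probes. Saturated spots numbered 0. The log2 intensity minus the array's 75th percentile was fitted with 6 group means on all 24 arrays in limma 3.58.1 (R 4.3.3), for the 37684 probes well above background on at least 2 of 4 arrays of any group, with Benjamini-Hochberg adjustment over them and a threshold of 0.05. The methods of the study name a two-way analysis of variance, run here as a plain two-way linear model without moderation. Exact permutation tests are two-sided. Probe symbols came from matching the transcript to RefSeq's genes, and 34566 probes had one. The study ran its assays of a replicate on a shared cell suspension, but the labels do not say that equal array numbers mark one, so the replicate block was an alternative. Precision is limited by the 4 arrays of a group.

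All 9 genes are named with all their probes; of each list up to 4 called genes with the highest absolute difference in a comparison are named, and genes that were not called are named as such; for Odc1, Sat1 and Smox (Amd1 had no probe) the 3 most correlated genes are named, except 1 that is not reported here. Genes and lists were chosen with earlier results of these data known. The procedure was tested on simulated data that held no time or slide effects, so that test says nothing on such effects here. The alternatives were other scalings (quantile, spike-in, percentile over probes well above background on all arrays), normexp background with an offset of 50, the deposited log2 values, other filters, marked spots kept, the plain model, the mean of a gene's probes, centring by array region and signal, a replicate block, samples left out, and 1 slide alone. Promoters were searched in Python 3.11.15 and figures drawn with matplotlib 3.10.9.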

Additional observations from a re-analysis of the deposited data

Results flagged for a closer look

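Odc1 in E24 was the only group of 48 (8 genes in 6 groups of 4 samples) with a sample far from the others. Replicate 3 read 4.541, below the other samples at 4.65 to 4.68, a gap of 0.832 of the group's range, just over Dixon's critical value. Chance alone flags about 1 in 20 such groups, or 2.4 of 48.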

How the results depend on the processing

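Of the values of the 8 genes under the alternatives, 3421 kept their side of the threshold, 39 gained a call and 71 lost one. Another 13 changed sign with a call in the main fit or in the alternative. The 3421 include values that changed sign without a call in either, and tests of the interaction, which have no direction. Smox, Sat1, Odc1, Srm, Sms and Azin1 were called higher at 4 h than at 0 h under all 40 alternatives in both treatments. The cause of the differences below was not tested.

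Counts of called genes differed as follows. Spike-in scaling called 8 genes at 24 h against 0 h in sham and 8 after nsPEF, and between treatments 1 at 0 h, 2 at 4 h, 0 at 24 h, 2 over the 3 time points and 1 for the interaction. At 24 h against 0 h after nsPEF, normexp background and centring by array region each called 3. Quantile normalization called 8 at 24 h against 4 h after nsPEF, 1 between treatments at 4 h and 1 over the time points. The percentile over probes well above background on all arrays called 1 at 4 h and 1 over the time points. No filter, the plain two-way linear model and the replicate block each called 1 between treatments at 4 h, and the arrays of the slide alone called 0 at 24 h.

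Leaving out samples gave 7 to 8 called genes at 4 h against 0 h in sham and 7 to 8 after nsPEF, 2 to 5 and 3 to 5 at 24 h against 0 h, and 5 to 6 and 5 to 5 at 24 h against 4 h. Between treatments it gave 0 to 0 at 0 h, 0 to 1 at 4 h (Sat1 without replicate 3 or 4 of E0), 0 to 2 at 24 h, 0 to 1 over the time points (1 without replicate 4 of E0) and 0 to 2 for the interaction, where Srm (adjusted p = 0.0137) and Oaz1 (adjusted p = 0.0470) were called without replicate 1 of E24.

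With quantile normalization Oaz1 turned to 0.057 in sham and 0.19 after nsPEF at 24 h against 4 h. With spike-in scaling the differences at 24 h against 0 h turned to 0.66 for Srm, 0.64 for Oaz1 and 0.52 for Oaz2 in sham and to 0.46 for Sat1, 0.47 for Azin1 and 0.34 for Oaz2 after nsPEF. At 24 h against 4 h they turned to 0.57 for Sms, 0.20 for Azin1 and 0.47 for Oaz1 in sham and 0.38 for Oaz1 after nsPEF. In both comparisons spike-in scaling also moved the median of all probes up, as given above. At 4 h against 0 h in sham, Slc22a3 turned to -0.14 with normexp background and Slc3a2 to -0.16 with the mean of its probes. The mean of the probes also turned Sat1 to -0.32 at 24 h against 0 h in sham and Azin2 to 0.015 between treatments at 24 h.

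Whether samples with equal replicate numbers were paired could not be settled from the values. Over 12 pairs with the same number the correlations of deviations ran from -0.047 to 0.0997. Each sham array was set against the 4 nsPEF arrays of its time, and 7 of 12 matched their own number best. Among them were replicates 1, 2, 3 and 4 at 4 h. With the replicate block Sat1 was called between treatments at 4 h (0.22, adjusted p = 0.0478), and no other call of the 8 genes changed. Signal over background limited Slc22a3, Arg1, Arg2 and Otc more than the 8 genes.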
